A study of Mus musculus with 6 samples.

Results

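Genes of the T-box, homeobox and basic helix-loop-helix families that mark where a fat depot lies in the body were examined for open chromatin in preadipocytes of the inguinal white adipose tissue. The set of 10 genes, chosen by name from 21755 annotated protein-coding genes, were the T-box genes Tbx1, Tbx3, Tbx5, Tbx15 and Tbx18, the homeobox genes Shox2, En1, Meox2 and Lhx8, and the basic helix-loop-helix gene Tcf21. Every ATAC-seq summit in the body of one of them, or within 50 kb of it, was taken. Windows of 0.501 kb were laid over summits with a q under 0.01 in at least 2 libraries, which gave 179248 windows, 132 of them at these genes. Weak summits without such support lay in no window. ATAC-seq cuts accessible DNA with the transposase Tn5, so that a pile of cut sites, a peak, marks open chromatin. The libraries came from 3 cultures of wild type (WT) cells and 3 of Hmgn1-/- and Hmgn2-/- double knockout (DKO) cells. The labels give strain C57BL/6 for both, and the study lists the DKO mice as the congenic stock B6.Cg-Hmgn2tm1.1Mbus Hmgn1tm1Mbus/Mmjax. The preadipocytes were isolated, per the study's methods, from fat of 8- to 12-week-old mice, grown on collagen-coated plates and collected at day 0, without differentiation medium. HMGN1 and HMGN2 are nucleosome-binding proteins, and they were missing throughout the body of the DKO animals and not in fat cells alone. The labels name separate samples but not separate animals, so the p-values below measure the spread between these 6 samples.

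T-box and homeobox proteins are transcription factors that bind DNA and lay out body axes, limbs and organs in the embryo. Adipose precursors keep part of that positional pattern in the adult, and depots are told apart by it. Tbx15, Shox2 and En1 are known from subcutaneous and trunk fat, Tcf21 from visceral fat, and Tbx1 and Lhx8 from beige and brown fat. Of each gene it was asked whether its promoter and surroundings held peaks in these inguinal cells, and whether those peaks differed between WT and DKO.

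A peak within 1 kb of an annotated transcription start site was found in all 6 libraries for 6 of the 10 genes: Tbx3, Tbx15, Tbx18, Shox2, En1 and Meox2. Tbx1 and Tbx5 held one in 4 libraries each, Lhx8 in 1, and Tcf21 in 0. These counts depend on the start sites used, those of the basic gene annotation. For Tbx5 that is 1 site, which lies after the annotated 5′ end of the gene (chr5:119832668). The promoter window of the neighbour Gm43050 (chr5:119831527-119832027), listed in all 6 libraries, lies within 1 kb of that 5′ end and was not counted for Tbx5. Over all protein-coding genes, 61.0% held a promoter peak in all 6 libraries and 28.6% in 0. The bases just before the start site are shown for the 4 genes with the strongest promoter peaks and for the 2 genes with the fewest, in the direction of transcription, with each CpG, the pair of letters that CpG islands are rich in, in capitals (mouse GRCm38).
Tbx18 (chr9:87731261-87731460, minus strand): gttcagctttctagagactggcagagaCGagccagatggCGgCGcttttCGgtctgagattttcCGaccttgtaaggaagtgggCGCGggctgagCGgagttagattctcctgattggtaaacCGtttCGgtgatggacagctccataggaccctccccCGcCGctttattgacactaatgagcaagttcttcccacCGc
Tbx15 (chr3:99253560-99253759, plus strand): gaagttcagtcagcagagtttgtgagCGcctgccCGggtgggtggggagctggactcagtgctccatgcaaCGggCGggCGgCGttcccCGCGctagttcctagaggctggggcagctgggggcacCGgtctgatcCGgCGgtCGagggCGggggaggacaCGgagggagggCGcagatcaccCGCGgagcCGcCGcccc
Tbx3 (chr5:119670469-119670668, plus strand): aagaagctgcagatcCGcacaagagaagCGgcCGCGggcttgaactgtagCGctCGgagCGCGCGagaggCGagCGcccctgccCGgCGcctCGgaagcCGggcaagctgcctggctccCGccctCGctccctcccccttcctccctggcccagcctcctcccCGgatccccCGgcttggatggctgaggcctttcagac
En1 (chr1:120602218-120602417, plus strand): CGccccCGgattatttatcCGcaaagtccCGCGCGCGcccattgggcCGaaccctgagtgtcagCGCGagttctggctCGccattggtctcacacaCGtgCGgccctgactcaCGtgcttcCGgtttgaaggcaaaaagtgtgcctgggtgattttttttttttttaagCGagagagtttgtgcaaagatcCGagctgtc
Tcf21 (chr10:22820175-22820374, minus strand): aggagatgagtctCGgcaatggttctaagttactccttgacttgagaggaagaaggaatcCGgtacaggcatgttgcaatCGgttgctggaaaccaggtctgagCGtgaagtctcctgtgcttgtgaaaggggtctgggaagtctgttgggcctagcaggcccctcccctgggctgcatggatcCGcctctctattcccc
Lhx8 (chr3:154330660-154330859, minus strand): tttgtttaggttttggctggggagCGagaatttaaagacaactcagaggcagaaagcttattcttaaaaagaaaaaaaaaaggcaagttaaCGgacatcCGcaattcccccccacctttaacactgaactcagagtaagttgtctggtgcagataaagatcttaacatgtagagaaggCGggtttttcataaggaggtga
These 200 bases held 19 CpGs at Tbx3 and at Tbx15, 17 at En1 and 13 at Tbx18, against 5 at Tcf21 and 4 at Lhx8. The median over the 21755 protein-coding genes was 8. Shox2, Meox2 and Tbx1 each held 9, and Tbx5, whose promoter peak was listed in 4 libraries, held 0. The count is a description of the reference sequence, and its part in the peaks was not tested.

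Peak height is given as fold enrichment, the pile that the peak caller MACS2 counted at a summit over the background of the same library. The units of that pile are called cut sites here. The value at a promoter is the strongest summit within 1 kb of any annotated start site of the gene. Tbx18, which shapes limb, heart and trunk mesenchyme, had the strongest promoter of the 10, at 19.9, 14.3 and 19.6 in WT and 14.8, 12.7 and 14.6 in DKO, each in the order of replicates 1 to 3, as below. The groups overlapped. The means were 17.9 ± 3.16 and 14.1 ± 1.15 (SD, n = 3 each; two-sided exact permutation p = 0.30). By its mean height the Tbx18 promoter stood at the 70.2th percentile of the 13269 protein-coding promoters with a peak in all 6 libraries.

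Tbx15, a marker of subcutaneous fat that also patterns skeleton and coat, came next. Its promoter gave 13.5, 11.9 and 14.4 in WT and 12.8, 12.0 and 13.9 in DKO, with means of 13.3 ± 1.26 and 12.9 ± 0.966 (SD, n = 3 each; exact permutation p = 0.80). The 2 ranges covered each other almost fully. The strongest Tbx15 summit lay about 0.525 kb before the start site, and a weaker window of 5.53 to 6.88 lay over the start site itself.

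Tbx3, needed for limb, heart and mammary development and known in adipose precursors, gave 9.90, 10.7 and 11.0 in WT and 12.0, 11.5 and 11.2 in DKO. Every DKO value was above every WT value. The means were 10.5 ± 0.582 and 11.6 ± 0.424 (SD, n = 3 each; exact permutation p = 0.10, the smallest that 3 against 3 can give, and 0.20 after Benjamini-Hochberg adjustment over the 6 genes). Ranked by p within each list, the Tbx3 promoter was the best placed of the 10 in its best library, at rank 5145 of about 300000 summits, and its worst rank was 12149. By mean height it stood at the 42.2th percentile of promoters, by mean rank at the 74.9th. Height and rank differ because rank also rises with the number of cut sites.

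En1, the homeobox gene of ventral limb and trunk skin, gave 12.2, 10.3 and 9.64 in WT and 8.07, 9.32 and 6.43 in DKO. All 3 DKO values lay below the WT values. The means were 10.7 ± 1.34 and 7.94 ± 1.45 (SD, n = 3 each; exact permutation p = 0.10, adjusted p = 0.20), at the 32.4th percentile of promoters. Meox2, a homeobox gene of somites and limb muscle, gave 8.47, 4.55 and 11.4 in WT and 5.59, 5.39 and 6.55 in DKO. Its WT replicates differed more than 2-fold among themselves and enclosed the DKO values (exact permutation p = 0.40, n = 3 each). Shox2, which sets the length of proximal limb bones, had the lowest promoter of the 6, at 5.37, 4.51 and 6.26 in WT and 4.39, 4.19 and 4.39 in DKO. The Shox2 groups did not overlap either, at means of 5.38 ± 0.875 and 4.32 ± 0.118 (SD, n = 3 each; exact permutation p = 0.10, adjusted p = 0.20). Meox2 and Shox2 stood at the 18.6th and 6.00th percentiles of promoters, so the 6 genes were spread over most of the range.

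**Figure D1:**
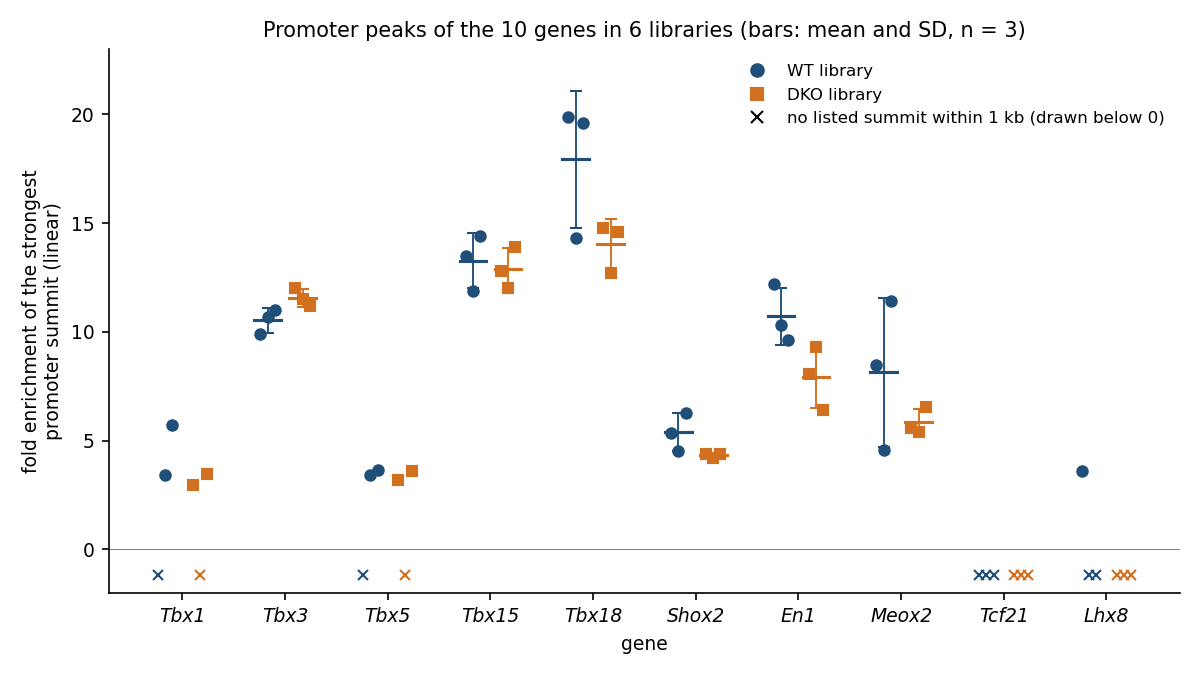
Fold enrichment of the strongest summit within 1 kb of a start site of each of the 10 genes (linear axis), with 1 circle per WT library and 1 square per DKO library, the mean and SD where all 3 libraries of a group had a summit, and a cross below 0 where none was listed. Tbx18 reached 19.9 in WT and 14.8 in DKO, Shox2 lay between 4.19 and 6.26, and Tcf21 had crosses alone.

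The order of the promoters was thus Tbx18, Tbx15, Tbx3 or En1, Meox2 and Shox2 by WT means. Tbx3 and En1 did not differ beyond their spread in WT (10.5 ± 0.582 and 10.7 ± 1.34), and Meox2 overlapped En1 through its large WT spread. Of the 6 promoters, 1 did not overlap between genotypes on the higher side and 2 on the lower side. Over the 13269 promoters these shares were 3.04% higher and 10.5% lower. Heights as a whole differed between libraries. The median over windows that every library listed was 7.60, 6.55 and 9.07 in WT and 6.89, 7.09 and 6.27 in DKO, and these medians overlapped between genotypes. With each library divided by that median, 0 of the 6 promoters had groups that did not overlap, where 2.73% of the 13269 did not on the lower side and 16.8% on the higher side, and the exact permutation p was 0.20 for Tbx3 and 0.30 for En1 and for Shox2 (n = 3 each). By rank in the lists, Tbx3 placed better in every DKO library, and Tbx18 and Shox2 worse (exact permutation p = 0.10 for each, n = 3 each). Of the 13269 promoters, 11.3% placed better in every DKO library than in any WT library and 8.37% worse.

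By the start sites used here, the other 4 genes had weak promoter summits or none. Tbx1, a regulator of pharyngeal development used as a marker of beige cells, had 3.42 and 5.70 in WT replicates 2 and 3 and 2.95 and 3.45 in DKO replicates 1 and 3, and no listed summit in the others. Tbx5, of heart and forelimb, had 3.42 and 3.64 in the same WT libraries and 3.20 and 3.62 in the same DKO libraries. Lhx8, a homeobox gene of the forebrain and tooth also used as a brown fat marker, had a single promoter summit of 3.60, in WT replicate 1. These summits rested on 12 to 26 cut sites each. For Tcf21, a marker of visceral fat and epicardium, the summit closest to the start site was 4146 bp away, in the 3′ flank of the gene. No test was made for these 4 genes, and a promoter without a listed summit was below the limit of the list, which does not mean that it was closed.

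Peaks around the genes gave another order than the promoters. The number of windows was 25 at Tbx15, 17 at Tbx5, 14 at Tbx1 and at Tbx18, 13 at En1, 12 at Lhx8, 11 at Tbx3 and at Shox2, 9 at Meox2 and 6 at Tcf21. Per 100 kb of locus, Meox2 (5.26) and Tcf21 (5.83) were the sparsest, at the 23.8th and 25.9th percentiles of protein-coding genes, and the other 8 lay between the 42.8th and 59.1th. Of the 132 windows, 75 (56.8%) had a summit in all 6 libraries, against 58.0% of all windows. By position, 17 lay at promoters of the genes, 11 at promoters of neighbours and 104 farther than 1 kb from every start site of the basic annotation, called distal here. By the comprehensive annotation 3 of these 104 lay within 1 kb of a start site, 957 bp from one of Sept5, 449 bp from one of AI606473 and 387 bp from one of Tbx15. The Tbx15 window, 12992 bp before the Tbx15 start site used here, gave 12.6, 8.14 and 14.3 in WT and 12.2, 10.1 and 9.60 in DKO.

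Tbx15 had the largest number of windows. Besides its promoter, a window 10091 bp after the start site used here (chr3:99263601-99264101, intron) gave 11.3, 11.5 and 15.0 in WT and 10.8, 10.9 and 8.93 in DKO. Another, 49601 bp after that start site (chr3:99303111-99303611, intron), gave 12.4, 12.2 and 13.1 in WT and 9.56, 10.8 and 9.92 in DKO. Neither passed the test described below, with log2 changes of -0.12 and -0.14 after quantile normalization (SE 0.12 and 0.13; limma adjusted p = 0.716 and 0.696).

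Distal peaks were also found at the genes with few or no promoter summits. A window at the 3′ end of Lhx8 (chr3:154305352-154305852, intergenic) gave 11.3, 10.8 and 14.1 in WT and 12.4, 11.6 and 9.92 in DKO, at the 87.9th percentile of all windows by level. Further Lhx8 windows of 7.60 to 13.2 (chr3:154290245-154290745) and of 7.54 to 16.1 (chr3:154269719-154270219, an intron of the neighbour Slc44a5) followed downstream. At Tbx5 an intronic window 33484 bp after the start site (chr5:119867897-119868397) gave 10.9, 9.90 and 12.1 in WT and 7.80, 9.80 and 9.49 in DKO. The Tbx5 promoter windows, by the start site used here, did not pass 3.64. At Tcf21 the strongest window lay 42069 bp downstream of the start site (chr10:22777840-22778340, intergenic), at 8.18, 5.41 and 9.10 in WT and 3.91, 4.53 and 4.59 in DKO. The Tcf21 groups there did not overlap (log2 change -0.59, SE 0.21; limma adjusted p = 0.290). Which gene a distal window acts on was not tested.

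The strongest window of all 132, at the 99.8th percentile of the series, lay 53718 bp downstream of the Tbx1 start site, in an intron of Gnb1l (27.1, 29.1 and 27.2 in WT, 22.1, 24.2 and 24.7 in DKO). The reference sequence there is shown because a run of 138 bases in its centre, in capitals, is identical to the 18S ribosomal RNA sequence Rn18s-rs5 of RefSeq, on the opposite strand (mouse GRCm38).
Tbx1 locus (chr16:18533151-18533351, plus strand): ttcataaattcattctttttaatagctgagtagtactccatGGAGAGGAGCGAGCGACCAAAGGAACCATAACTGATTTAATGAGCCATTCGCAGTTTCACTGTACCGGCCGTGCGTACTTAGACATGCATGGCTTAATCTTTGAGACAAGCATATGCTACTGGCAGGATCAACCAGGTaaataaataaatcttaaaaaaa
In the other 131 windows the longest identical run was 12 bases. Cut sites of ribosomal DNA repeats and of this copy cannot be told apart within such a run by sequence alone. The window stays among the 132. The next strongest window of the locus (chr16:18617650-18618150, intergenic, between Tbx1 and Gp1bb) gave 10.5 to 16.2 in WT and 11.4 to 12.2 in DKO.

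**Figure D2:**
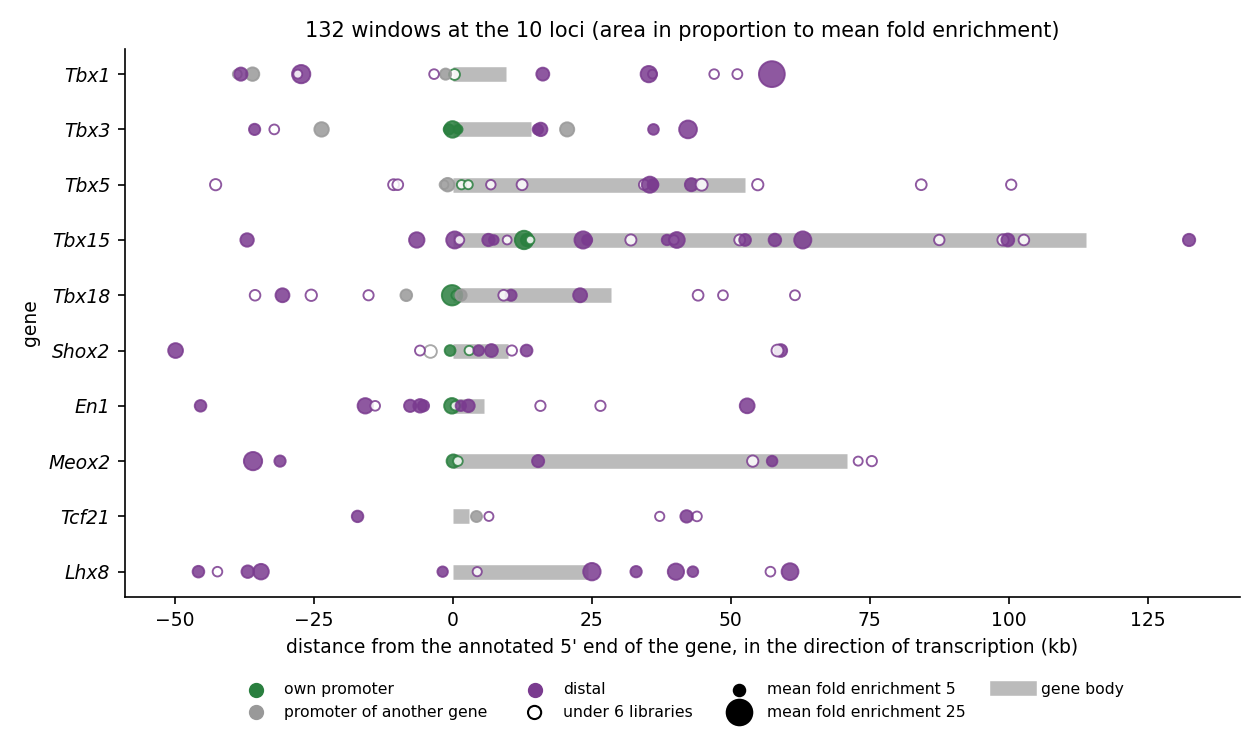
The 132 windows by distance in kb from the annotated 5′ end of each gene, read in the direction of transcription. The area of a circle is in proportion to mean fold enrichment over the libraries with a summit, the colour gives the class, filled circles had a summit in all 6 libraries and the grey bar is the gene body. Tbx15 has 25 windows in and around its body, Tcf21 has 6 and none at its start, and the largest circle is the ribosomal RNA copy at the Tbx1 locus.

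DKO was next compared with WT over all 179248 windows with limma on quantile-normalized log2 fold enrichment, with Benjamini-Hochberg adjustment. At an adjusted p under 0.05, 0 of the 132 windows were called in either direction (0.0591% of all windows were). At an unadjusted p under 0.05, 8 were lower in DKO and 5 higher, where the shares over all windows, 6.10% lower and 5.68% higher, are close to these counts. Without scaling between libraries, the median over all windows moved to -0.14 and that of the 132 to -0.18, and the counts became 15 lower and 1 higher, where the shares over all windows were 9.31% and 2.30%. After quantile normalization, groups that did not overlap were counted in 8 windows on the lower side and 9 on the higher side, against 7.67% and 8.76% of all windows. The median log2 change was -0.03 over the 132 windows and 0.01 over all. Only 7 of the 132 lay below the 5th percentile of all windows and 2 above the 95th. The counts at these genes were therefore near the background of the series. In simulated data the fit called 0 of 200 windows changed by 1 log2 unit and 119 of 200 changed by 2, so a change of 1 unit at a single window could have been missed. The 200 were drawn from all windows, including those not listed in every library. The rate for windows listed in every library alone was not measured.

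Within this background the loci differed in their medians. Meox2 had the lowest, at -0.48, with 7 of 9 windows lower in DKO and 3 that did not overlap. These counts and the median include a window listed in 3 WT and 0 DKO libraries (chr12:37183683-37184183). The direction of that window was set by how it was chosen. Tbx5 had the highest, at 0.16, with 9 of 17 windows higher. The medians of the other 8 loci lay between -0.16 (Tbx18) and 0.13 (Tbx3). By class, 6 of the 17 windows at promoters of the genes were lower in DKO (35.3%, median 0.12), and 64 of the 104 distal windows were (61.5%, median -0.10). Over all windows 36.1% within 1 kb of a start site were lower (median 0.08), and 51.1% elsewhere (median -0.01).

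**Figure D3:**
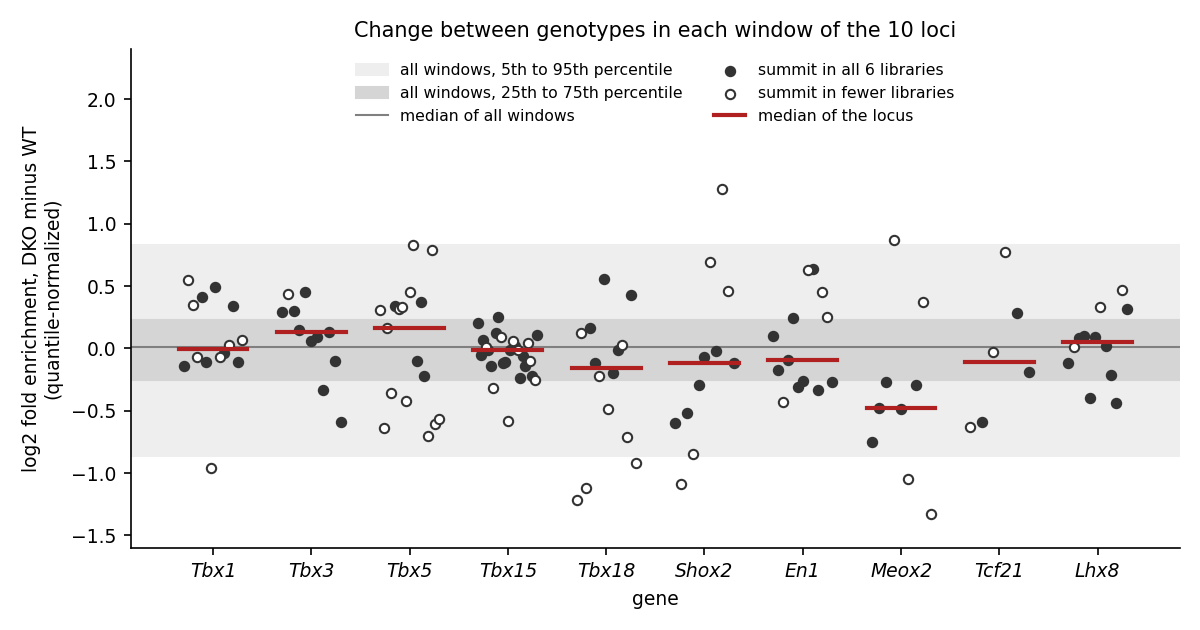
Log2 fold enrichment in DKO minus WT after quantile normalization, with 1 point for each of the 132 windows, filled where a summit was listed in all 6 libraries. The red line is the median of a locus, the pale band spans the 5th to 95th percentile of all 179248 windows (-0.86 to 0.83) and the darker band the 25th to 75th (-0.25 to 0.23). Meox2 has the lowest median, -0.48, and most points lie inside the pale band.

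The window with the smallest p was at Meox2, 35892 bp before its start site (chr12:37072398-37072898, in introns of the non-coding genes Gm48616 and Gm48617). It gave 18.0, 14.6 and 17.8 in WT and 10.3, 9.64 and 6.88 in DKO, so that the lowest WT value was above the highest DKO value by over 4 units. On the log2 scale DKO differed from WT by -0.75 (SE 0.14), at a limma adjusted p of 0.110. A neighbour 31033 bp before the start site gave 6.43, 5.67 and 5.83 in WT and 3.91, 3.97 and 3.60 in DKO (log2 change -0.48, SE 0.23; limma adjusted p = 0.448). A further Meox2 window that did not overlap, just past the 3′ end of the gene (chr12:37183683-37184183), was listed at 4.09, 3.42 and 4.70 in WT and in 0 of the 3 DKO libraries. Its log2 change of -1.33 (SE 0.36; limma adjusted p = 0.173) sets the WT peaks against the lowest value of each DKO list, so it is not a fold change.

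At Tbx3 the strongest distal window and the promoter moved in opposite directions. The distal window, 41995 bp after the start site (chr5:119712763-119713263, intergenic), gave 16.2, 11.7 and 18.1 in WT and 9.20, 10.4 and 7.52 in DKO (log2 change -0.59, SE 0.13; limma adjusted p = 0.143). The window over the start site (chr5:119670415-119670915) gave 9.90, 8.94 and 9.85 in WT and 12.0, 11.5 and 11.2 in DKO (log2 change 0.45, SE 0.13; limma adjusted p = 0.186). In neither window did the groups overlap, and neither change passed the threshold. The Tbx3 start site lies within Tbx3os1, a non-coding gene on the opposite strand, and the cut sites of the 2 genes cannot be separated. The central 0.201 kb of both strong distal windows are shown because their values differed most between genotypes (mouse GRCm38); capitals mark AP-1 letters, searched as TGANTCA on either strand. The FOS and JUN proteins bind best where N is C or G.
Meox2, 35.9 kb upstream (chr12:37072548-37072748, plus strand): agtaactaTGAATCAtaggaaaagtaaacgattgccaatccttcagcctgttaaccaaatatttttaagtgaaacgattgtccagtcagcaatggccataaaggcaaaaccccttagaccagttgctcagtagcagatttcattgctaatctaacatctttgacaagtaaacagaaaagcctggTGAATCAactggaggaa
Tbx3, 42.0 kb after the start site (chr5:119712913-119713113, plus strand): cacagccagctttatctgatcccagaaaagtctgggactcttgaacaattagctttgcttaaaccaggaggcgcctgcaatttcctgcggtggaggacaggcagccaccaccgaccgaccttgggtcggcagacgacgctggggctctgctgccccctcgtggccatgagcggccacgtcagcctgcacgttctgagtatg
The Meox2 sequence held 2 matches, at bases 9 and 185, both TGAATCA and so without C or G at N, and 2 CpGs. The Tbx3 sequence held 0 matches and 11 CpGs.

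When the fit was restricted to the 103985 windows that every library listed, both windows passed, at an adjusted p of 0.00840 for Meox2 and 0.0453 for Tbx3 (limma). That made 2 of the 75 windows tested at these loci lower in DKO, where 0.590% of all windows tested were. Over all alternatives the limma adjusted p ranged from 0.00840 to 0.339 for the Meox2 window and from 0.0453 to 0.339 for the Tbx3 window, and the log2 change in fold enrichment from -0.92 to -0.62 and from -0.75 to -0.51. With −log10 p as the value, which is another quantity, the log2 changes were -1.28 and -0.77. With eBayes run without a trend, 2 other windows passed, the Meox2 window past the 3′ end and a Tbx18 window 61577 bp downstream of the start site (limma adjusted p = 0.0132 for each), and 1.17% of all windows were called lower. The Tbx18 window (chr9:87669433-87669933, intergenic) was listed at 3.50, 3.42 and 4.40 in WT and in 0 DKO libraries. Both windows entered the fit through WT summits alone and hold the lowest value of each list in DKO, so the direction was set by how they were chosen, and their adjusted p is no support for a change.

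**Figure D4:**
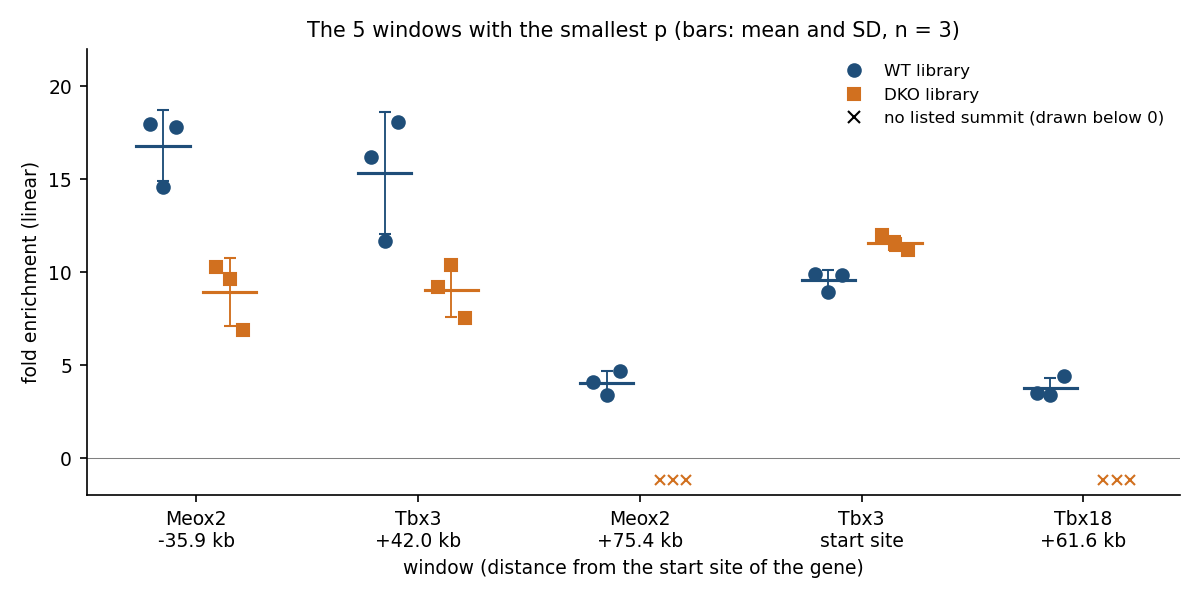
Fold enrichment (linear axis) in each library at the 5 windows with the smallest limma p, named by gene and distance from its start site, with 1 circle per WT library, 1 square per DKO library, mean and SD, and crosses below 0 where no summit was listed. At the upstream Meox2 window WT lay between 14.6 and 18.0 and DKO between 6.88 and 10.3, and the Tbx3 start site was the one window of the 5 that was higher in DKO.

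At the remaining loci the smallest p belonged to windows on either side of 0. The promoter of Rsrc1, 4131 bp from the Shox2 start site, was listed at 5.44 and 3.86 in WT replicates 2 and 3 and at 8.25, 7.27 and 6.00 in DKO (log2 change 1.28, SE 0.42; limma adjusted p = 0.241), and is the promoter of a neighbour that codes for a splicing factor. WT replicate 1 entered at the lowest value of its list, so 1.28 is not a fold change, and it became 0.77 without WT replicate 1 and 1.76 without WT replicate 2. An intronic window of Gnb1l, 31585 bp downstream of the Tbx1 start site, gave 7.71, 8.68 and 12.2 in WT and 9.61, 12.7 and 10.7 in DKO (log2 change 0.41, SE 0.15; limma adjusted p = 0.335). The coding exon of En1, 1484 bp after its start site, gave 4.06, 2.63 and 4.00 in WT and 4.98, 5.28 and 4.11 in DKO (log2 change 0.64, SE 0.28; limma adjusted p = 0.409), against the direction of the En1 promoter. At Tbx5 the smallest p belonged to an intronic window 32437 bp after the start site, at 3.27 and 3.99 in WT replicates 1 and 3 and at 3.71, 5.17 and 4.02 in DKO (log2 change 0.83 with the lowest value of the list for WT replicate 2, SE 0.38; limma adjusted p = 0.433; 0.47 to 1.00 with 1 library left out). At Lhx8 it was an intergenic window 36836 bp before the start site, at 7.88, 5.12 and 8.51 in WT and 4.47, 7.37 and 2.95 in DKO (log2 change -0.44, SE 0.29; limma adjusted p = 0.535). It ranged from -0.75 to -0.15 with 1 library left out. The Lhx8 groups overlapped. At this Tbx5 window and at the Gnb1l window of the Tbx1 locus the groups overlapped in fold enrichment and did not after quantile normalization. The same held at the Tbx15 start site (log2 change 0.25, SE 0.18; limma adjusted p = 0.564). The strongest distal windows of En1 (9.11 to 10.8 in WT, 6.55 to 10.3 in DKO) and of Shox2 (6.83 to 13.8 and 6.52 to 8.39) overlapped between genotypes. That of Tbx18, 30595 bp upstream, gave 6.13, 5.69 and 8.81 in WT and 8.39, 8.79 and 6.88 in DKO (log2 change 0.43, SE 0.15; limma adjusted p = 0.303). The Tbx18 groups there also overlapped in fold enrichment and did not after quantile normalization.

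The number of listed summits was compared as well, since each list was limited to about 300000 and several summits can share a window. The 10 loci together held 220, 217 and 219 summits in WT and 216, 205 and 207 in DKO. The groups did not overlap, with means of 219 ± 1.53 and 209 ± 5.86 (SD, n = 3 each; exact permutation p = 0.10, the smallest possible). The difference was -9.33 summits. The groups overlapped when the flank was set to 10 kb (difference -3.67, exact permutation p = 0.40, n = 3 each) or to 100 kb (-9.33, exact permutation p = 0.30). Without summits near the start site of another gene, DKO replicate 1 tied with the lowest WT library (-9.00, exact permutation p = 0.20, n = 3 each). Groups did not overlap for 3 genes, each with fewer summits in DKO: Tbx18 (20, 21 and 24 in WT, 15, 18 and 16 in DKO), Tbx15 (47, 45 and 49, then 44, 42 and 41) and Meox2 (17, 16 and 16, then 15, 14 and 13), each at an exact permutation p of 0.10 (n = 3 each). Over all protein-coding loci, 3.81% did not overlap on the lower side and 8.78% on the higher side, the latter with 0 of these 10 genes. Among the 100000 summits with the smallest p of each list, the counts were 53, 52 and 60 in WT and 57, 50 and 56 in DKO, a difference of -0.667 (exact permutation p = 1.00, n = 3 each). Among the 50000 with the smallest p they were 18, 19 and 18 in WT and 16, 17 and 17 in DKO (difference -1.67, exact permutation p = 0.10, n = 3 each). Most of the gap therefore lay among the weaker summits, toward the end of the lists, where the lowest −log10 p differed between libraries from 3.54 to 5.63.

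In sequence, the windows at these loci were richer in G and C than the series, at a median GC content of 49.2% against 46.3%. Distal windows had 46.3% against 45.3%. The share with AP-1 letters was 21.2% (28 of 132) against 30.0% of all windows, and in distal windows 24.0% against 33.7%. The matches were uneven, with 7 of them among the 13 windows of En1. T-box letters (AGGTGTGA) were in 1 window (0.758% against 0.491%), homeobox letters (TAATTA) in 3 (2.27% against 3.24%), E-box letters (CAGCTG) in 19 (14.4% against 14.0%), TEAD letters (GGAATG) in 16 (12.1% against 16.3%) and the CTCF motif in 2 (1.52% against 3.07%). Both strands of the central 0.201 kb were searched, and overlaps between motifs were not removed. A match is a run of letters and no proof of binding.

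Related genes were examined in the same way. Of 26 relatives (further T-box genes and the closest relatives of the other members), 10 had a promoter peak in all 6 libraries and 6 had none, and 16 had a promoter window that could be tested. Of 33 further position and depot genes, such as Hox, Irx and Prrx genes, 22 had a promoter peak in all 6 libraries and 1, the muscle gene Myf5, had none, and 27 had a window. The share over all protein-coding genes was 61.0% in all 6 libraries. The genes without a window included En2, Lhx5, Meox1 and T among the relatives and Bnc1, Myf5, Nr2f2 and Pax7 among the others. None of the 43 windows was called (limma, 0 lower and 0 higher), and at an unadjusted p under 0.05 there were 0 lower and 4 higher, where 2.60% of all windows within 1 kb of a start site were lower and 8.16% higher. In the relatives the smallest p belonged to Lhx2 (log2 change 0.63), Tbx20 (1.11) and Tcf24 (0.67), and the lowest limma adjusted p was 0.307. Tbx20 was listed in 1 WT library, at 3.80, and at 3.35, 5.10 and 4.26 in DKO, so its value rests on the lowest value of the other WT lists and is not a fold change. In the others it was Irx3, a homeobox gene linked to adipocyte browning, at 9.08, 8.51 and 10.7 in WT and 10.3, 11.9 and 11.4 in DKO (log2 change 0.46; limma adjusted p = 0.180), followed by Six2 (0.57) and Twist1 (0.35). The Irx3 groups overlapped in fold enrichment and did not after quantile normalization. The median log2 change was 0.06 in the relatives and 0.18 in the others, where that of all windows near start sites was 0.08.

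The lists held 299433 to 299620 summits each, a number fixed by the limit of about 300000, with a background of 2.05 to 2.58 cut sites, the lowest in DKO replicate 3. Hmgn2 had a promoter peak of 7.89, 7.53 and 9.45 in WT and none in DKO, which fits the labels, whereas the Hmgn1 promoter was listed in all 6. Progenitor markers had a promoter peak in all 6 libraries for 9 of 10 genes, with summed heights of 60.1 to 64.2 in WT and 48.8 to 59.9 in DKO. These sums were not scaled between libraries. They count an unlisted peak as 0, as for Ly6a in WT replicate 3 and DKO replicates 2 and 3. After quantile normalization, 4 progenitor marker windows were lower in DKO and 5 higher, with a median log2 change of 0.03. Of other cell types, a promoter peak in all 6 libraries was found for 2 of 4 leukocyte markers (8.98 to 13.9 in all) and 3 of 4 endothelial markers (33.3 to 42.1). It was found for 1 of 4 epithelial, 0 of 4 mesothelial and 0 of 3 skeletal muscle markers. Ptprc was listed in 1 library and Krt18, Msln, Upk3b, Lrrn4, Myod1 and Myf5 in none. Cdh5, an endothelial cadherin gene, had a promoter peak in 0 WT libraries and at 3.91, 7.09 and 4.26 in DKO. Pecam1, another endothelial gene, went the other way, at 16.9, 12.2 and 17.2 in WT and 11.1, 11.8 and 10.3 in DKO, and Tek, an endothelial receptor gene, gave 15.4 to 18.2 in WT and 13.5 to 15.3 in DKO. These peaks were as high as those of the genes studied. The share of other cells in the cultures and its part in the results were not tested, and in a bulk sample fewer cells with a site open and less opening per cell cannot be told apart.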

How the data were processed

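Groups and replicate numbers came from the sample titles. Per the labels and the study's methods, the authors trimmed paired-end reads (cutadapt 1.18), aligned them to mm10 with Bowtie2 2.3.4.3, removed duplicate and mitochondrial reads, called peaks in each library with MACS2 and kept about 300000 summits. The deposited fold enrichment (a ratio over local background) and the deposited −log10 p were used as they are; −log10 q served as a filter. Read totals were not analysed here. The values corresponded to whole-number MACS2 pile counts, called cut sites here, at all 651 member values, within 0.001 in −log10 p. Windows of 0.501 kb were centred on summits with a q under 0.01 in at least 2 libraries; the value was the highest fold enrichment in the window, or the lowest of the list where no summit was listed. Log2 values were quantile-normalized and fitted with limma 3.58.1 in R 4.3.3 (lmFit, eBayes with trend, two-sided), DKO minus WT. The fit was tested on simulated data. For a single value per library, an exact permutation test over 20 assignments (two-sided) was used. GENCODE M21 basic (53843 genes) and the GRCm38 sequence from RefSeq were used; all peaks ended within its chromosomes.

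The 10 genes, the related lists and the markers were chosen with earlier results of these data known. For each gene the text names its strongest promoter window, its strongest distal window and the window with the smallest p; over all 132 windows it names the 5 smallest p, and in each related list the 3 smallest. Further windows were named after their values were seen. Alternatives were median centring, no scaling, no trend, windows in all 6 libraries, −log10 p as the value, a replicate block, leaving out each library, other distances and shorter lists. A further marker list is not reported here.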

Additional observations from a re-analysis of the deposited data

How the results depend on the processing

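Every one of 40 results was recomputed, giving 443 values, and 414 of these neither turned sign, crossed a threshold nor moved beyond the spread. Windows called lower numbered 0 in the main fit, 2 without the eBayes trend and 2 among windows in all 6 libraries; the cause was not tested, although the last fit has fewer windows to adjust over. Leaving out any 1 library gave 0 called lower and 0 higher. The sample titles do not say whether same-numbered samples were prepared together. Their deviations from the group means were hardly correlated across windows (0.0054, -0.011 and -0.0071), and with a replicate block 0 windows at these loci were called. The count of genes with a promoter peak in all 6 libraries was 6, and 9 within 2 kb of a start site, 4 among the 100000 and 3 among the 50000 smallest p of each list. The summit difference of -9.33 became -0.667 among the 100000 and -1.67 among the 50000 smallest p, -3.67 within 10 kb of the genes, and -12.7 to -7.17 with 1 library left out. Promoters with groups that did not overlap fell from 3 to 0 after division by the library median. Small changes turned sign: Shox2 at -448 bp (-0.02) to 0.03, 0.07 and 0.10 with 1 library left out (range -0.18 to 0.10), and likewise Shox2 at -49817 bp (-0.22 to 0.07) and Tbx5 at 33484 bp (-0.19 to 0.01); Tbx15 at -525 bp (0.12) to -0.04 without scaling and -0.09 on −log10 p; Lhx8 at 24457 bp (0.09) to -0.09 without scaling; the Tbx15 promoter difference (-0.391) to 1.39 after division by the median and to 0.182 and 0.0687 with 1 library left out (range -1.06 to 0.182). List limits of −log10 p 3.54 to 5.63 bound what weak peaks can show.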

Other observations

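The promoters of genes next to the depot genes, many of them non-coding, were counted apart. They held 11 windows, of which 9 were higher in DKO, with a median log2 change of 0.30, where that of all windows near start sites was 0.08 and 36.1% of those were lower. By limma 0 were called, and 0 had an unadjusted p under 0.05 on the lower side and 1, the Rsrc1 promoter described above, on the higher side, where 2.60% and 8.16% of all windows near start sites did, so these counts are near the background. Tbx3os2, a non-coding gene downstream of Tbx3, had a promoter window of 9.29, 4.79 and 10.3 in WT and 8.44, 7.20 and 6.49 in DKO. Gm43050, a non-coding gene before Tbx5, gave 5.46, 8.08 and 6.53 in WT and 7.05, 9.05 and 6.26 in DKO, which is higher than the Tbx5 promoter itself in every library. Sept5, a septin gene at the Tbx1 locus, gave 6.22, 6.40 and 7.13 in WT and 7.53, 6.72 and 7.87 in DKO. The promoter window of 4930588K23Rik, centred 1255 bp before the Tbx1 start site, gave 4.68, 2.99 and 5.38 in WT and 4.82, 6.24 and 4.80 in DKO. Each of these 4 promoters overlapped between genotypes in fold enrichment, while 4930588K23Rik did not after quantile normalization, and no reason for the direction was tested.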
